A study of Mus musculus with 8 samples.

Results

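The cardiac and vascular connexins are represented here by 4 genes, Gja1 (connexin 43), Gja4 (connexin 37), Gja5 (connexin 40) and Gjc1 (connexin 45), taken from the 23045 genes of the expression table by exact match of the gene symbol. Of these 4 connexin mRNAs, 0 passed the test between WT and Mettl3 KO hearts, where 7.91% of all tested genes did, so that the count by itself does not set the connexins apart. The values of the genotypes overlapped for each of them. The precision differed widely between the genes: the 95% interval for Gja1 ran from 4.56% below to 8.49% above WT, whereas that for Gja4 ran from 6.45% below to 67.4% above. Gja1 supplied most of the connexin mRNA per length in both genotypes.

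Connexins are membrane proteins that assemble into hexameric hemichannels, and docking of hemichannels of neighbouring cells forms gap junctions, through which ions and small molecules pass directly from cell to cell. In the heart this current flow carries the action potential from myocyte to myocyte, mainly across the intercalated discs. Connexin 43 is the main connexin of working ventricular and atrial myocardium, connexin 40 is found in atrial myocytes, the fast conduction system and arterial endothelium, connexin 45 is known from nodal and conduction tissue, and connexin 37 from endothelium, mainly of arteries. METTL3 is the catalytic subunit of the enzyme that writes N6-methyladenosine (m6A) into mRNA, a mark that influences processing, translation and decay of transcripts.

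Total RNA of mouse hearts was sequenced in 8 libraries, here called hearts by their number, with 4 from Mettl3 lox/lox control animals (WT) and 4 from Mettl3 lox/lox animals that also carried αMHC-MerCreMer (Mettl3 KO). Mice of both genotypes were 10 to 16 weeks old and received 100 µg tamoxifen per 1 g body weight on 7 consecutive days by intraperitoneal injection. The αMHC promoter drives the tamoxifen-dependent recombinase in cardiomyocytes, so that endothelial cells, smooth muscle cells and fibroblasts keep an intact Mettl3 gene. The groups therefore differ in the deletion and in the presence of the transgene, which cannot be told apart, and sex was not considered in the design. Deposited values are normalized read counts, and they sum to between 2839589 and 2916986 per library.

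The targeted gene fitted the labels: Mettl3 averaged 116 ± 12.8 (SD, n = 4) normalized reads in WT and 72.3 ± 4.65 (n = 4) in Mettl3 KO hearts, 62.4% of WT, with a log2 fold change of -0.67 and an adjusted p of 0.000184 (limma, Benjamini-Hochberg adjustment over 20313 genes). Esr1, the estrogen receptor gene whose hormone-binding part the transgene carries, stood at 13 to 20 in WT and 693 to 851 in Mettl3 KO libraries. The heart label was matched by the markers, since 12 cardiomyocyte genes summed to 94053 to 105110 in each library. Libraries differed in atrial genes: Myl7, the atrial regulatory light chain, was 26, 21, 0 and 23 in WT hearts 1 to 4, against 23, 65, 90 and 119 in Mettl3 KO hearts 1 to 4, so that WT heart 3 stood apart at the low end. Bmp10, a growth factor of atrial myocytes, was listed at 0 in all 4 WT libraries and in Mettl3 KO heart 1, and at 195, 158 and 358 in the others.

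The gene models differ in size but share one layout, with the whole coding region in 1 exon. In the mm39 coordinates of the deposited table, Gja1 (ENSMUSG00000050953) spans chr10:56253426-56278609 on the plus strand and Gja4 (ENSMUSG00000050234) chr4:127205214-127207832 on the minus strand. Gja5 (ENSMUSG00000057123) spans chr3:96812009-96984732 on the plus strand, where 654 bases are shared with Gpr89 on the opposite strand, and counting by strand keeps those reads apart. Gjc1 (ENSMUSG00000034520) spans chr11:102690405-102710526 on the minus strand. The coding regions hold 382 codons in Gja1, 333 in Gja4, 358 in Gja5 and 396 in Gjc1, without the stop codon. No 72-base stretch, the length of a read, of the 4 representative transcripts recurred in the annotated transcript of another gene, so no read of that length taken whole from them would match a paralogue exactly.

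The letters of the preferred m6A sequence, GGACT in DNA code, were searched on the sense strand of the representative transcripts (GENCODE M21, GRCm38). The coding region of each of the 4 connexins held them once, and the stretch after the stop codon held them once more in Gja1, Gja4 and Gja5 and at 2 places in Gjc1. The coding windows of 21 bases are shown, 5′ to 3′ on the coding strand and with GGACT in capitals, because they are the stretches of these coding regions that hold the letters METTL3 is known to prefer. Gja3 (connexin 46), described with the other family members, holds 2 coding matches, and the one at the same coding base as in Gja1 is added for comparison.
Gja1: caccaggtGGACTgcttcctc
Gja4: cacatcgtGGACTgctatgtc
Gja3: aacactgtGGACTgtttcatc
Gja5: ctgtggctGGACTgtctctgt
Gjc1: gctggccaGGACTgtgtttga
The Gja1 window lies at chr10:56388126-56388146 (plus strand), that of Gja4 at chr4:127312369-127312389 (minus), that of Gja3 at chr14:57036314-57036334 (minus), that of Gja5 at chr3:97051266-97051286 (plus) and that of Gjc1 at chr11:102800613-102800633 (minus), each within the coding exon and in GRCm38 coordinates, which do not transfer to mm39. In Gja1, Gja4 and Gja3 the letters begin at the same coding base, 588 counted from the A of the start codon, whereas they begin at base 646 in Gja5 and at base 551 in Gjc1. The Gja1 window shares 15 of 21 bases with that of Gja4 and 15 with that of Gja3. Among 15102 genes with a representative transcript, 25 (0.166%) hold GGACT at coding base 588. Such matches are common, as 92.0% of these genes hold GGACT somewhere in the transcript at a median of 1.06 per kb, against 0.651 per kb in Gja1, 1.19 in Gja4, 0.643 in Gja5 and 1.30 in Gjc1. A match says nothing on whether the adenosine is methylated, and methylation was not measured here.

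Gja1, the connexin of working myocardium, was the most abundant of the 4 genes, with values of 1622, 1553, 1609 and 1612 normalized reads in WT hearts 1 to 4 and 1796, 1604, 1620 and 1501 in Mettl3 KO hearts 1 to 4. The WT values fell within the range of the Mettl3 KO values, which held both the highest and the lowest library. Means were 1599 ± 31.2 (SD, n = 4) in WT and 1630 ± 122 (n = 4) in Mettl3 KO, and the log2 fold change was 0.03 (SE 0.04, 95% interval -0.07 to 0.12, adjusted p = 0.828). Of the 20313 tested genes, 7.91% passed an adjusted p of 0.05, with 4.72% higher and 3.19% lower in Mettl3 KO hearts, and 0 of the 4 connexins did. The median half-width of the interval over all tested genes was 0.35, so the Gja1 interval was narrow, at the 99.5th percentile of mean value. Duplicate reads had been removed before counting. Gja1 held 1536 to 1688 recovered reads per library, and its representative transcript has 3000 positions at which a 72-base read can start. Whether the removal lowered the Gja1 values or their differences was not tested.

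The WT hearts differed among themselves in Gja1 by 1.95% (coefficient of variation), where counting error by itself gives 2.48%, and the Mettl3 KO hearts by 7.51%. The wider Mettl3 KO spread lay in the normalized values of hearts 1 and 4. The factor that turns recovered reads into normalized values was 1.10869, 0.98864, 1.04569 and 0.93017 in Mettl3 KO hearts 1 to 4. This factor ranked the Mettl3 KO hearts as Gja1 and the summed cardiomyocyte markers did. In WT hearts it was highest in heart 4, at 1.04954, where Gja1 was not highest. Whether the scaling by this factor gave the Mettl3 KO spread was not tested. Without Mettl3 KO heart 1 the log2 fold change turned to -0.02 and the adjusted p was 0.816 (0.470 to 0.947 over the alternatives). The summed cardiomyocyte markers were 98105, 96753, 99705 and 103569 for WT, against 105110, 97298, 104811 and 94053 in Mettl3 KO, and thus were also highest in Mettl3 KO heart 1 and lowest in heart 4, although heart 3 came close to heart 1 in this sum and not in Gja1. Ttn, the titin gene, made up 71020 of the mean WT sum of 99533. In whole tissue, fewer cells of a type and less RNA per cell cannot be told apart, and the part of the scaling factor in the marker sums was not tested. Relative to these 12 markers, Gja1 differed between the genotypes by -0.01 on the log2 scale (exact permutation test over 70 splits, two-sided, p = 0.771), a comparison added after the data were seen.

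Gjc1, the gene of connexin 45, had 173, 172, 139 and 201 normalized reads in WT hearts and 172, 173, 189 and 197 in Mettl3 KO hearts. WT hearts 3 and 4 held the lowest and the highest value of all 8. The means of 171 ± 25.4 (SD, n = 4) and 183 ± 12.3 (n = 4) gave a log2 fold change of 0.10 (SE 0.09, 95% interval -0.09 to 0.29, adjusted p = 0.605), which allows a difference from 5.97% below to 22.7% above WT. Leaving out WT heart 3 brought the log2 fold change to 0.01, and leaving out WT heart 4 brought it to 0.18, neither of which passed. The WT coefficient of variation, 14.8%, was above the 7.49% that counting error gives, while that of the Mettl3 KO hearts was 6.72%.

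Gja5, the connexin 40 gene of atrium, fast conduction system and arteries, had 42, 56, 49 and 46 normalized reads in WT hearts and 57, 47, 46 and 48 in Mettl3 KO hearts. One heart of each genotype stood above the others, WT heart 2 and Mettl3 KO heart 1. Means were 48.3 ± 5.91 (SD, n = 4) and 49.5 ± 5.07 (n = 4), and the log2 fold change was 0.04 (SE 0.14, 95% interval -0.25 to 0.32, adjusted p = 0.927). The spread within WT (12.2%) and within Mettl3 KO hearts (10.2%) was below the 14.2% of counting error. The direction turned without WT heart 1 (-0.02) and without Mettl3 KO heart 1 (-0.03), and without WT heart 3, the heart low in atrial genes, the log2 fold change was 0.05.

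Gja4, the connexin 37 gene of arterial endothelium, was the least counted member, with 22, 18, 24 and 35 normalized reads in WT hearts and 28, 28, 30 and 36 in Mettl3 KO hearts. All 4 Mettl3 KO values lay above 3 of the WT values, and WT heart 4 lay between the Mettl3 KO hearts. The means of 24.8 ± 7.27 (SD, n = 4) and 30.5 ± 3.79 (n = 4) gave a log2 fold change of 0.32 (SE 0.20, 95% interval -0.10 to 0.74, adjusted p = 0.407). Counting error by itself gives an SD of 4.87 in WT and 5.60 in Mettl3 KO, so that the WT spread was above it and the Mettl3 KO spread below it. Without WT heart 4 the log2 fold change was 0.50 and the adjusted p 0.169, the lowest over the alternatives. Without WT heart 2 the log2 fold change was 0.19 and the adjusted p 0.699, the highest over the alternatives. The exact permutation test of single genes, which with 4 against 4 cannot fall below 0.0286, gave p = 0.2 for Gja4, 0.771 for Gja1, 0.771 for Gja5 and 0.6 for Gjc1, each with an adjusted p of 0.771 over these 4 tests.

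**Figure D1:**
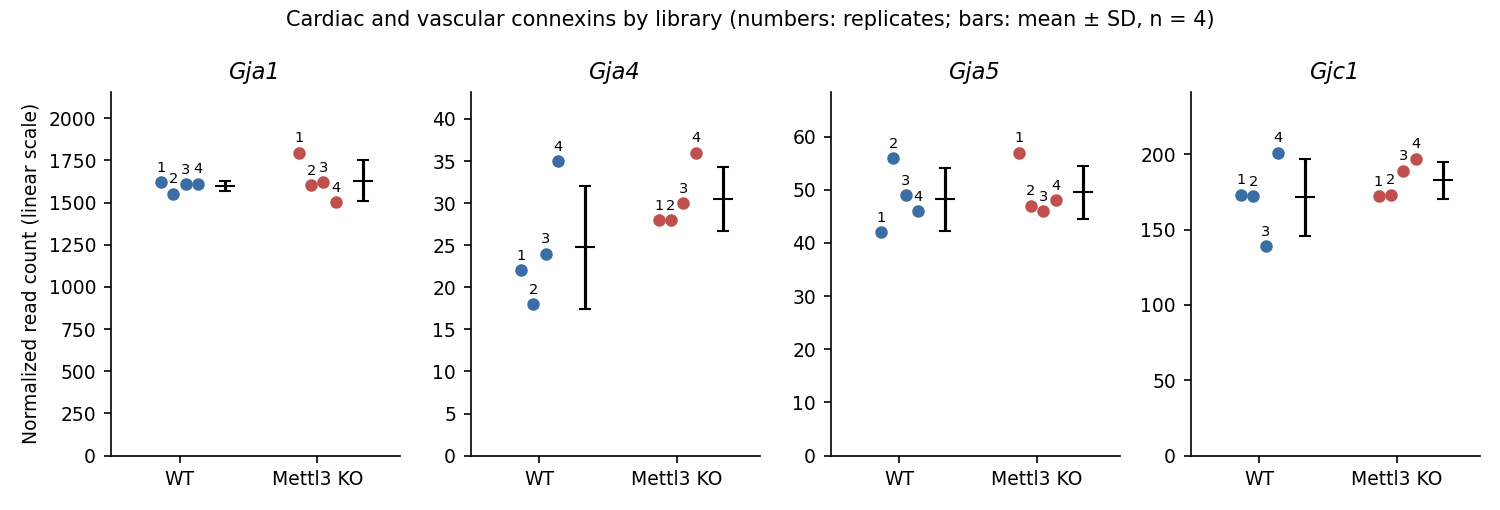
Normalized read counts (linear axis from 0, scaled per gene) of Gja1, Gja4, Gja5 and Gjc1 in each WT (blue) and Mettl3 KO (red) heart, with replicate numbers and the mean ± SD (n = 4) beside the points. The genotypes overlap in each panel: Gja1 lies between 1501 and 1796, Gja4 between 18 and 36, Gja5 between 42 and 57, and Gjc1 between 139 and 201.

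To compare levels between the genes, values were divided by the length of the representative coding transcript, which is 3071 bases for Gja1, 1685 for Gja4, 3109 for Gja5 and 2314 for Gjc1. Per kb, WT hearts held 521 ± 10.1 (SD, n = 4) normalized reads of Gja1, 74.0 ± 10.96 of Gjc1, 15.5 ± 1.90 of Gja5 and 14.7 ± 4.32 of Gja4. Gja1 was thus 7.04-fold above Gjc1, 33.6-fold above Gja5 and 35.4-fold above Gja4. In Mettl3 KO hearts the levels per kb were 531 ± 39.9, 79.0 ± 5.31, 15.9 ± 1.63 and 18.1 ± 2.25 in the same order of genes.

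Gja1 lay above Gjc1, and Gjc1 above both others, in each of the 8 libraries, while Gja5 and Gja4 did not differ beyond their spread. Gja1 made up 83.3% of the summed level per kb of the 4 genes in WT and 82.4% in Mettl3 KO, with single libraries between 80.0% and 85.3%. Removing duplicate reads lowers abundant short transcripts most, and its effect on these folds and shares was not tested. The assumed length moves these folds and shares. With the union of all annotated exons as length, the WT levels were 156 for Gja1, 34.2 for Gjc1, 14.7 for Gja4 and 8.397 for Gja5, which places Gja4 above Gja5. Gja1 was then 4.55-fold above Gjc1, 10.6-fold above Gja4 and 18.6-fold above Gja5, and it made up 73.1% in WT and 71.5% in Mettl3 KO (67.9% to 75.6% over libraries).

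**Figure D2:**
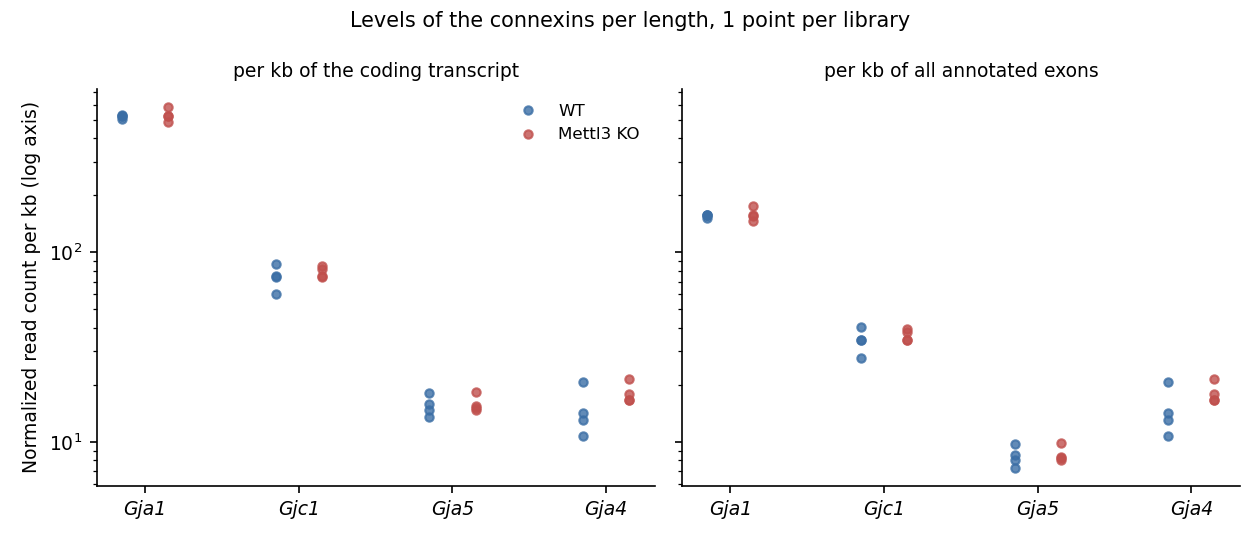
Normalized read count per kb (log axis) of each connexin in WT (blue) and Mettl3 KO (red) libraries, 1 point per library, with the coding transcript (left) or all annotated exons (right) as length. Gja1 is highest with either length, at 521 or 156 in WT, and the order of Gja5 and Gja4 differs between the panels.

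Connexins of one cell can mix in the same channel, which makes their proportions of interest. Among the 6 pairwise log2 ratios, compared between genotypes by exact permutation tests, the ratio of Gja4 to Gja1 differed by 0.30 (two-sided p = 0.257, adjusted p = 0.857 over 6 ratios). By the same exact test, the ratio of Gja4 to Gja5 differed by 0.28 (p = 0.429, adjusted p = 0.857) and that of Gja4 to Gjc1 by 0.22 (p = 0.371, adjusted p = 0.857). The ratios of the other genes differed by 0.08 for Gjc1 to Gja1 (p = 0.6), 0.01 for Gja5 to Gja1 (p = 0.943) and -0.06 for Gja5 to Gjc1 (p = 0.8286), all from exact permutation tests. In the 2 ratios of Gja4 to Gja1 and to Gjc1, the 4 Mettl3 KO hearts lay above the WT mean, but the groups overlapped. Single libraries weighed on these values: without WT heart 2 the differences for Gja4 to Gja1, to Gja5 and to Gjc1 were 0.18, 0.0793 and 0.0817, and without WT heart 4 they were 0.47, 0.48 and 0.31. Without Mettl3 KO heart 4 the first was also 0.18.

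The endothelial connexins were also set against their cell type. The summed level of 12 endothelial markers was 6317 to 6529 in WT and 5760 to 6306 in Mettl3 KO libraries, and 5 of the 12 genes passed the test, beside 7.91% of all tested genes, and 4 of them were lower, beside 3.19%. Tie1, an endothelial receptor kinase, fell by 0.27 (adjusted p = 0.00689), Kdr, the main receptor for vascular endothelial growth factor, by 0.26 (adjusted p = 0.000667), and Cdh5, the endothelial cadherin, by 0.20 (adjusted p = 0.0133) on the log2 scale. The Cdh5 call held under 16 of 19 alternatives (adjusted p 0.00501 to 0.207) and was lost without WT heart 2 (0.0598) and without Mettl3 KO heart 3 (0.0626). Vwf, the von Willebrand factor gene, rose from 535 ± 61.9 to 730 ± 35.1 (n = 4 each, log2 fold change 0.45, adjusted p = 9.18e-05). Relative to the 12 markers, Gja4 was at -4.02 ± 0.36 in WT and -3.61 ± 0.22 in Mettl3 KO hearts on the log2 scale, a difference of 0.41 (exact permutation test, p = 0.114, adjusted p = 0.229 over Gja4 and Gja5), with 4 of 4 Mettl3 KO hearts above the WT mean. The groups overlapped, since WT heart 4 at -3.54 lay above 3 of the Mettl3 KO hearts. Without that heart the difference for Gja4 was 0.57 with an exact p of 0.0286 (up to 0.229 over the alternatives), unadjusted and the smallest that 3 against 4 libraries can give. Gja5 relative to these markers differed by 0.13 (exact permutation test, p = 0.343), and by 0.0504 without Mettl3 KO heart 1, 0.0746 without WT heart 1 and 0.20 without WT heart 2.

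Of 16 genes of arterial endothelium, among them Notch ligands and receptors, 0 passed, beside 7.91% of all tested genes. Their median log2 fold change was -0.11, beside -0.01 over all tested genes. The most abundant of them, Nrp1, a co-receptor for vascular endothelial growth factor, averaged 1185 ± 32.7 in WT and 1217 ± 100 in Mettl3 KO hearts (adjusted p = 0.766). Of 11 smooth muscle and pericyte markers 2 passed, both lower (3.19% of all tested genes): Notch3 (-0.32, adjusted p = 0.00639) and Abcc9, a subunit of potassium channels (-0.20, adjusted p = 0.00152). These markers summed to 5231 to 5676 in WT and 4826 to 5146 in Mettl3 KO libraries, and Abcc9 (2180 to 1902) made up most of the difference in means. Which cells of the heart gave the Abcc9 reads was not tested. The contractile genes of the list did not pass and lay on either side of 0, with log2 fold changes of 0.14 for Acta2, 0.17 for Myh11, 0.41 for Tagln, 0.68 for Cnn1 and -0.21 for Mylk. The part of these shifts in the values of Gja4 and Gja5 was not tested beyond the ratios given.

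Among 18 other connexin and pannexin genes considered, 7 were listed, 6 of these were tested, and 0 passed, beside 7.91% of all tested genes. Gja3, whose connexin 46 is best known from the lens, came closest. Its values were 86, 91, 83 and 90 for WT, against 127, 104, 116 and 94 for Mettl3 KO hearts, and the groups did not overlap, as was the case for 11.5% of the tested genes. Averages of 87.5 ± 3.70 (SD, n = 4) and 110 ± 14.3 (n = 4) corresponded to a log2 fold change of 0.32 (SE 0.10, 95% interval 0.11 to 0.53, adjusted p = 0.0556). Under 19 alternatives the adjusted p lay between 0.0312 (without Mettl3 KO heart 4) and 0.168, and 2 of them passed. 

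Panx1, which forms large membrane channels that do not dock between cells, counted 22, 9, 12 and 10 in the WT hearts, against 23, 15, 19 and 21 with Mettl3 deleted (log2 fold change 0.59, SE 0.27, adjusted p = 0.214). WT heart 1 lay among the Mettl3 KO values. The other 4 tested genes, Gja6, Gjc3, Gjd3 and Panx2, had at most 10 normalized reads in each library and log2 fold changes between -0.69 and 0.26. The remaining listed gene, Gjb2, was below the filter.

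Regulators of connexin transcription were considered next. Of 17 tested factors 3 passed (17.6%, beside 7.91% over the whole fit), each with a higher level in Mettl3 KO hearts, and the median log2 fold change was 0.10. Tbx5, a T-box factor known as an activator of Gja5, rose from 254.5 ± 22.1 (SD, n = 4) to 332 ± 24.9 (n = 4), with values of 259, 224, 277 and 258 for WT, against 305, 326, 333 and 365 for Mettl3 KO hearts (a log2 difference of 0.38, SE 0.07, adjusted p = 0.00116). The genotypes did not overlap in Tbx5, as in 11.5% of all tested genes, and they overlapped in Gja5. Whether the changes of these genes differ was not tested.

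Hand2, a basic helix-loop-helix factor of the developing ventricle, rose from 175 ± 12.8 to 219.5 ± 10.9 (n = 4 each, log2 fold change 0.32, SE 0.07, adjusted p = 0.00645). Irx4, a ventricular homeobox factor, rose from 167 ± 25.2 to 204 ± 11.3 (log2 fold change 0.30, adjusted p = 0.0447), with overlapping groups and a call that held under 7 of 19 alternatives (adjusted p 0.0149 to 0.246). Nkx2-5, a homeobox factor of cardiomyocytes, had means of 72.5 and 85.0 (adjusted p = 0.249), and Tbx3, a repressor of Gja1 and Gja5 in nodal tissue, of 171 and 154 (adjusted p = 0.313).

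**Figure D3:**
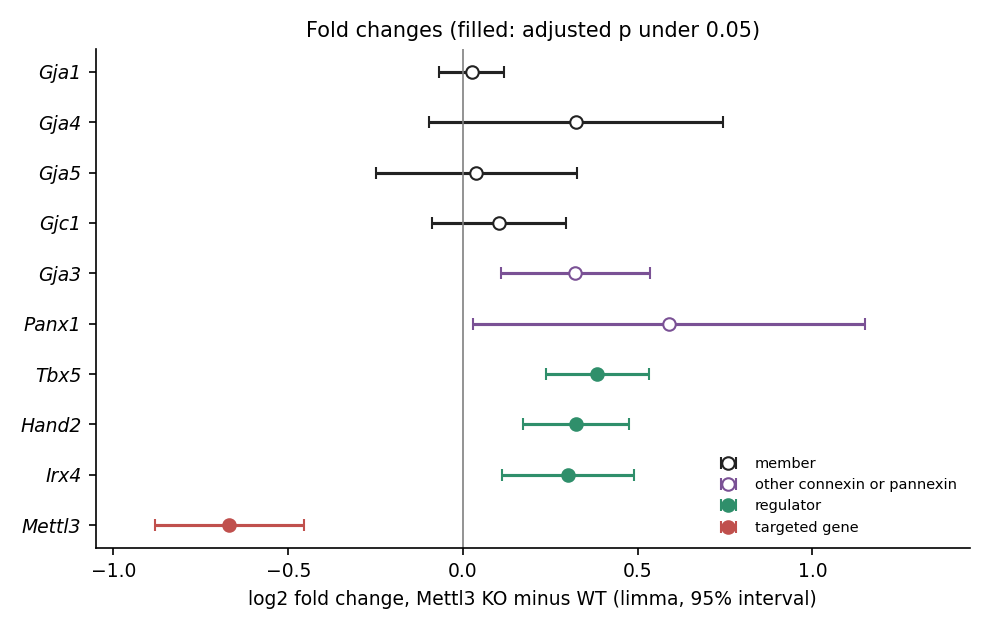
Log2 fold change (Mettl3 KO minus WT, limma, with 95% intervals) of the 4 connexins, of Gja3 and Panx1, of the 3 called regulators and of Mettl3. Filled points passed an adjusted p of 0.05: the intervals of Gja1, Gja4, Gja5 and Gjc1 include 0, and Tbx5, Hand2 and Irx4 lie at 0.38, 0.32 and 0.30.

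Gap junctions lie beside adhering junctions and desmosomes in the intercalated disc, and 26 genes of these partners and of connexin turnover were tested. Of these, 6 passed (23.1%, beside 7.91% of all tested genes), 4 higher and 2 lower, with a median log2 fold change of 0.04. Ctnna3, the αT-catenin gene of the mixed junctions of the disc, fell from 590 ± 33.2 (SD, n = 4) to 436 ± 49.99 (n = 4), with 553, 601, 575 and 630 for WT, against 365, 438, 472 and 470 for Mettl3 KO hearts (a log2 difference of -0.44, SE 0.07, adjusted p = 0.000206). Xirp2, an actin-binding protein of the disc, rose from 4860 ± 169 to 6037 ± 439 (log2 fold change 0.31, SE 0.04, adjusted p = 2.8e-05), without overlap.

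Smaller increases were found for Dsp, which encodes desmoplakin (0.15, adjusted p = 0.0150), and Ank3, which encodes ankyrin-G (0.16, adjusted p = 0.0169), both named after their values were seen. The Dsp call held under 15 of 19 alternatives and was lost without WT heart 1 (0.0613), WT heart 2 (0.0574) or Mettl3 KO heart 3 (0.0894). The Ank3 call held under 14 and was lost without WT heart 3 (0.0569), WT heart 4 (0.0569), Mettl3 KO heart 3 (0.0747) or Mettl3 KO heart 4 (0.0638). The calls of the caveolin genes were less stable. Cav3, the muscle caveolin, stood at 167 ± 7.14 and 197.5 ± 13.03 (adjusted p = 0.0483, 0.0350 to 0.153 over 19 alternatives, of which 4 passed). Cav1 stood at 695 ± 24.8 and 621 ± 40.1 (adjusted p = 0.0490, 0.0164 to 0.282, of which 9 passed). In limma without a mean-variance trend, where 321 rather than 1607 of all tested genes passed, 0 of these partners and 0 of the regulators did. Tjp1, whose product ZO-1 binds the tail of connexin 43, averaged 1019.5 in WT and 966.5 in Mettl3 KO hearts (adjusted p = 0.343), and Nedd4, a ubiquitin ligase of connexin 43, 2347 and 2326 (adjusted p = 0.908).

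Gja5 is shared by the atrium and the conduction system, and genes of both were therefore compared with it. Of 12 atrial genes 7 passed, each higher (4.72% of all tested genes), with a median log2 fold change of 0.30. Their sum ranged from 3184 to 3489 in WT libraries and was 3815, 4351, 4500 and 4820 in Mettl3 KO hearts 1 to 4. Pam made up 1487 of the mean WT sum of 3367 and 1830.5 of the mean Mettl3 KO sum of 4371.5. Gja5 was highest in Mettl3 KO heart 1, where the atrial sum was the lowest of that genotype. Sln, the atrial calcium pump inhibitor sarcolipin, was 12, 6, 0 and 4 for WT, against 10, 34, 29 and 64 for Mettl3 KO hearts (adjusted p = 0.00375), and Myl4, the atrial essential light chain, 112, 114, 17 and 110 against 113, 269, 287 and 370 (adjusted p = 0.0086). The Sln call held under 17 of 19 alternatives (adjusted p up to 0.170) and the Myl4 call under 14 (up to 0.260). The Myl4 call was lost without any one of Mettl3 KO hearts 2 (0.0562), 3 (0.0606) and 4 (0.0660). With WT heart 3 and Mettl3 KO heart 1 at the low end, the genotypes overlapped in both genes. They did not overlap in 3 of the 12 atrial genes, Nppa, Kcnj5 and Pam, beside 11.5% of all tested genes. Nppa, named after its values were seen, was 282, 243, 175 and 292 for WT, against 452, 410, 508 and 481 (limma, adjusted p = 8.74e-06). Log2 fold changes over the atrial genes ran from -0.30 (Kcna5, which did not pass) to 5.85 (Bmp10).

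Of 11 tested conduction system genes 3 passed (27.3%, beside 7.91% of all tested genes). Kcne1, an auxiliary potassium channel subunit, fell from 80.3 ± 28.7 to 25.0 ± 6.68 (log2 fold change -1.60, SE 0.22, adjusted p = 4.57e-05), and Scn10a, a sodium channel, from 30.8 ± 5.06 to 15.8 ± 6.95 (-1.02, adjusted p = 0.0205, held under 12 of 19 alternatives at 0.00369 to 0.174). Cacna1d, the calcium channel of pacemaker cells, rose from 61.5 ± 5.00 to 86.5 ± 8.35 (0.48, adjusted p = 0.00891). Over the conduction genes the median was 0.06 on the log2 scale.

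Gja1 is also present in fibroblasts, and 7 of 8 fibroblast markers passed the test as higher in Mettl3 KO hearts (4.72% of all tested genes), with a median log2 fold change of 0.39 over the 8. Their sum was 3493 to 3883 in WT and 4398 to 5060 in Mettl3 KO libraries. Lum, the proteoglycan lumican, rose from 209.5 ± 15.6 to 293.5 ± 23.9 (adjusted p = 0.000135) and Dpt, dermatopontin, from 178 ± 9.39 to 235 ± 2.16 (adjusted p = 0.000438), and Col3a1 and Col1a2, which encode fibrillar collagens, by 0.43 and 0.41 on the log2 scale. Of 12 cardiomyocyte markers 1 passed, a share of 8.33% that is near the 7.91% of all tested genes. It was the calcium release channel gene Ryr2, which fell by 0.23 (adjusted p = 0.000137). Of 8 macrophage and leukocyte markers 0 passed, with Mrc1, the mannose receptor of macrophages, at 488 ± 58.2 and 475.5 ± 50.4 (adjusted p = 0.863). The part of the fibroblast genes in the values of Gja1 was not tested.

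**Figure D4:**
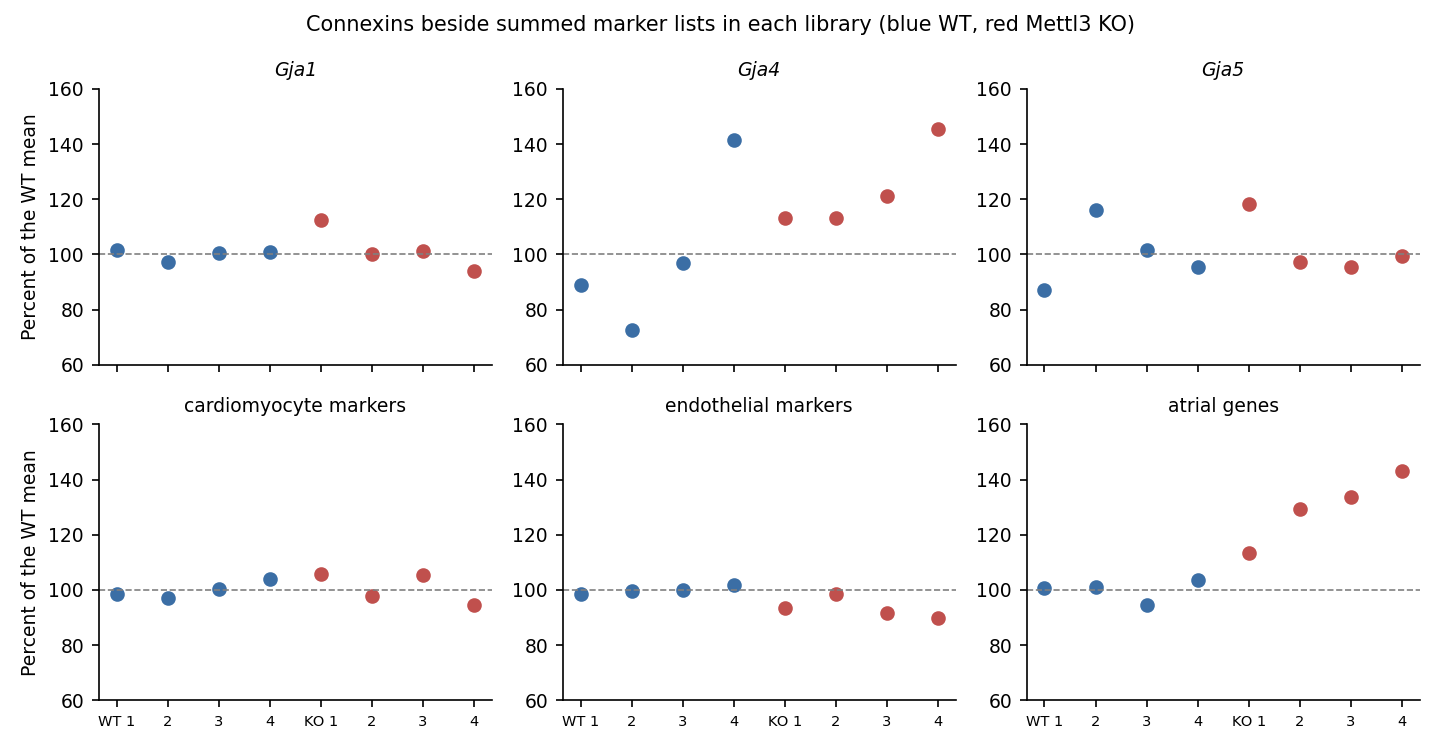
Gja1, Gja4 and Gja5 (upper row) and the summed cardiomyocyte, endothelial and atrial lists (lower row) in each library as percent of the WT mean (dashed line at 100), on axes from 60 to 160 percent, with WT in blue and Mettl3 KO in red. The endothelial sum averages 93.4% of WT and the atrial sum 130% in Mettl3 KO hearts, and Gja1 averages 102%, Gja4 123% and Gja5 103%.

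The genes whose level followed each connexin most closely over the 8 libraries were picked from the 9313 genes averaging 50 or more, so that high coefficients were selected for. For Gja1 these were Babam2 (Pearson r = 0.97), Paqr4 (0.96) and Slc16a1 (0.95), the last of which encodes a lactate transporter and had 868 normalized reads in Mettl3 KO heart 1, its highest, and 688 in heart 4, its lowest. For Gja4 they were Zbtb44 (0.96), the immediate early gene Egr1 (0.92) and Mllt3 (0.92), for Gja5 Kdm6b (0.94), Ptpn1 (0.91) and Kif3b (0.90), and for Gjc1 AI987944, Prdm9 and Scarf1 (each 0.95). Among the connexins themselves, Gja4 and Gjc1 came closest (r = 0.60), followed by Gja1 and Gja5 (0.32), and the other 4 pairs lay between -0.28 and -0.03. The points share the library and its normalization.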

How the data were processed

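Total RNA of mouse hearts (4 WT and 4 Mettl3 KO libraries) had been sequenced as stranded single-end reads of 72 bases. Per the study's methods and processing notes, the authors trimmed with Trimmomatic 0.39, aligned with STAR 2.7.11a to mm39 (Ensembl 109), removed duplicates with Picard 3.1.1 and multi-mapping reads, counted with featureCounts 2.0.4 by strand and normalized with DESeq2 1.36.0. The deposited values are a score: normalized counts that the authors rounded to whole numbers, not raw counts, so limma was used in place of a count test. Removing duplicates of single-end reads lowers abundant short transcripts most.

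Reads per library, recovered by finding the factor whose rounded multiples match the values, numbered 2631829 to 3061260. Counting error was taken from these reads, and it covers counting only. Genes with a mean of at least 1 (20313, leaving out 2732) were transformed to log2(value + 1) and compared between genotypes in limma (version 3.58.1, R 4.3.3), letting the prior variance follow the mean and using no covariate. This scale understates fold changes of low genes. Adjustment was by Benjamini-Hochberg over all tested genes at 0.05, two-sided. The procedure was tested on simulated data, of which no values are given here.

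The connexins and the gene lists were chosen with earlier results of these data known. Named were, per list, up to 4 called genes with the largest change or, with none called, the most abundant gene, and per connexin the 3 best correlated genes. Tbx3, Nkx2-5, Tjp1, Nedd4 and the contractile smooth muscle genes were named for their known roles, after their values were available. Some items are not reported here. Lists are described by counts and medians. The sources used here do not say that each library came from a separate animal, and p-values then measure only the spread between these libraries, which may be technical. Alternatives covered the pseudocount, filter, scaling, moderation, replicate block and omission of each library.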

Additional observations from a re-analysis of the deposited data

Results flagged for a closer look

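The gap of the highest or lowest library to the next, as a share of the range of its genotype, was compared with Dixon's limit for 57 values: the 4 connexins, the genes named from the lists, the summed marker lists and the library totals. Of the 114 groups of 4 libraries, 7 exceeded the limit, where chance gives about 5.7, and none of these was a group of Gja1, Gja4, Gja5 or Gjc1. Myl4 stood at 17 in WT heart 3 against 110 to 114 in the other WT hearts (gap 0.959 of the range), and Ryr2 at 10427 in the same heart against 9666 to 9731 (0.915). In Mettl3 KO heart 2, Cacna1d was low at 74 against 90 to 91 (0.941), Cav1 high at 681 against 598 to 603 (0.94) and Cdh5 high at 818 against 734 to 747 (0.845). In Mettl3 KO heart 1, Cav3 was high at 217 against 190 to 192 (0.926) and Mrc1 at 551 against 448 to 455 (0.932).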

How the results depend on the processing

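The 4 connexins passed the test under none of the alternatives tried. Leaving out 1 library in turn gave log2 fold changes of -0.0224 to 0.0638 for Gja1, 0.19 to 0.50 for Gja4, -0.0296 to 0.11 for Gja5 and 0.01 to 0.18 for Gjc1, and -0.0561 to 0.10 for the log2 ratio of Gja5 to Gja1, -0.0209 to 0.15 for Gjc1 to Gja1, -0.16 to 0.0412 for Gja5 to Gjc1, 0.18 to 0.47 for Gja4 to Gja1, 0.0793 to 0.48 for Gja4 to Gja5, 0.0817 to 0.32 for Gja4 to Gjc1, 0.28 to 0.57 for Gja4 and 0.0504 to 0.20 for Gja5 relative to endothelial markers. Gja1 was -0.0106 relative to cardiomyocyte markers. Per kb of all exons the WT levels were 156 (Gja1), 8.397 (Gja5) and 34.2 (Gjc1).

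The number of genes called among all tested fell from 1607 to 321 with limma without a trend, and was 1019 to 1596 with a library left out, lowest without Mettl3 KO heart 3. Without the trend, 0 genes were called among partners, regulators, endothelial, conduction, atrial, smooth muscle and cardiomyocyte lists and 2 among fibroblast markers. The cause was not tested. Robust moderation called 3 atrial genes, and a filter at a mean of 10 called 1 other connexin (Gja3). With a library left out, the calls were 0 to 1 for other connexins, 2 to 5 for partners, 3 to 6 for endothelial markers and 2 to 4 for smooth muscle markers. Of the genes named from the lists, Gjd3 (-0.49 to 0.30), Mrc1 (-0.11 to 0.0290), Nrp1 (-0.0164 to 0.0762) and Nedd4 (-0.0470 to 0.0170) turned direction when 1 library was left out.

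In a fit that blocked on replicate number, the genes called in all tested numbered 1346, with 0 of the connexins among them, and the Gja4 log2 fold change stayed at 0.32 (adjusted p = 0.353 in limma, 0.169 to 0.699 over its alternatives). Over 12027 genes, deviations of libraries with the same number correlated at -0.04 to 0.09, and 3 of 8 libraries correlated best with their own number, so the numbers do not pair the hearts. Counting error gives a coefficient of variation of 19.0% for Gja4 and 14.2% for Gja5, against 2.48% for Gja1. What differences this depth can show was not tested.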
